A study of Rattus norvegicus with 30 samples.

Results

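The genes described here are 10 genes of bile acid synthesis and conjugation: Cyp7a1, Cyp8b1, Cyp27a1, Cyp7b1, Cyp39a1, Acox2, Slc27a2, Slc27a5, Baat and Fgfr4. They were chosen by name, and every probe set annotated to 1 of them alone was taken, which gave 10 probe sets, 1 per gene, of 31099 on the array, and 10 of the 14217 genes that its probe sets name singly. Of the 10, 9 passed the filter on low signals and were tested among 16596 probe sets; Cyp7b1 did not pass and its signals are described without a test. The data were 30 arrays, 1 per culture well, of primary hepatocytes of male Sprague Dawley rats. The cells were bought frozen from XenoTech, seeded on plates coated with collagen, overlaid with Matrigel and dosed on day 3, and the labels give no age. The 6 groups, of 5 wells each, were vehicle, 300 µM phenobarbital and 3000 µM phenobarbital at 24 h after dosing, and the same vehicle and doses at 48 h. The vehicle is water in the titles and culture media in the agent field. Wells are separate cultures, but no animals or donors are numbered, so p-values measure the spread between wells, and their number limits the precision. Each time has 1 vehicle group, so both doses at that time were set against the same 5 vehicle wells.

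Hepatocytes turn cholesterol into bile acids, which leave the cell in bile, aid fat absorption and carry cholesterol out of the body. In the classic route Cyp7a1 makes the first and rate-limiting hydroxylation, Cyp8b1 later decides whether cholic acid is formed, and in the alternative route Cyp27a1 and Cyp7b1 hydroxylate side chain and ring in a different order. The intermediates of both routes are shortened in peroxisomes and joined to glycine or taurine, and returning bile acids restrain Cyp7a1 through the receptor FXR and through a gut hormone sensed by Fgfr4. Phenobarbital, a barbiturate used against seizures, is a classic inducer of drug metabolism in rat liver through the receptor CAR.

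Markers of hepatocytes were bright on all arrays: the lowest signal of any of 9 measured markers, Alb among them, was 10156, for Tat. Of the other cell types, 6 of 6 measured lymphocyte markers, 4 of 5 endothelial and 4 of 5 cholangiocyte markers (all but Epcam) averaged below the filter level of 384 in every group. Of 8 measured macrophage markers 7 were tested, and the summed signal of the 8 was 2488 to 4642 over all arrays. Of the 8, 1 averaged below the filter level in vehicle wells at 24 h, and 4 or 5 did so in each other group. Of 9 stellate cell or fibroblast markers 5 were tested, and 4 to 6 of the 9 averaged below the filter level in each group. The single probe set for both Cyp2b1 and Cyp2b2, standard phenobarbital targets, had medians of 37803 at 24 h and 23660.2 at 48 h at 300 µM, against 1483 and 1825 in vehicle wells. At 3000 µM its medians were 3251 and 1611, while Cyp2c6v1, another phenobarbital-induced gene, had medians of 48872 and 40143, against 15268 and 12650.2 in vehicle wells. The spiked hybridization controls were brighter, by 0.93 and 1.39 on the log2 scale, on vehicle array 1 at 24 h and on 3000 µM array 4 at 48 h. These 2 arrays stand apart from the rest in that respect. Without both, the number of changed genes among the 9 was the same in each comparison of a dose or a time but 1: for 300 µM at 24 h it was 5 in place of 4. For 3000 µM against vehicle at 48 h the number held but the genes differed. There Cyp27a1 gained a call (adjusted p = 0.0312, limma) and Cyp39a1 lost its call (0.0591).

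At 300 µM the 10 genes did not move as a block. At 24 h 3 rose (Cyp7a1, Cyp39a1 and Acox2), 1 fell (Slc27a2), and 5 of the 9 tested did not pass (limma, adjusted p under 0.05 over all probe sets tested). Of all probe sets tested, 1.72% rose and 1.27% fell. The wells of both groups did not overlap for 5 of the 9, with 3 higher (2.78% of all probe sets) and 2 lower (2.52%). At 48 h 2 rose (Cyp7a1 and Acox2) and 2 fell (Slc27a5 and Slc27a2), against 0.813% of all probe sets that rose and 0.723% that fell, and without overlap 2 were higher (2.22%) and 3 lower (2.63%). With each array centred on its median, 66.9% of the probe sets called at 48 h were higher, against 52.9% without it, and 1 of the 9 rose and 1 fell. The median log2 change of the 9 was -0.15 at 24 h and -0.13 at 48 h, beside 0.00 and -0.02 over all probe sets tested.

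At 3000 µM none of the 9 rose and most fell. At 24 h 7 fell, against 14.8% of all probe sets that fell and 17.3% that rose, and Cyp39a1 and Fgfr4 did not pass. For 7 of the 9 all dosed wells lay below all vehicle wells, as for 11.4% of all probe sets, and for none above, as for 13.2%. At 48 h 8 fell, against 19.9% of all probe sets that fell and 19.5% that rose, and Cyp27a1 did not pass. Without overlap 7 were lower (12.7% of all probe sets) and none higher (11.5%). With arrays centred on their medians, 67.0% of the probe sets called at 24 h were higher, against 53.9% without it. The median log2 change of the 9 was -0.54 at 24 h and -0.75 at 48 h, beside 0.01 and 0.00 over all probe sets. In such bulk samples, fewer hepatocytes and less of an RNA per hepatocyte cannot be told apart. Of 9 hepatocyte markers 6 fell at 3000 µM at 24 h, by 0.27 to 0.55 on the log2 scale, and 3 at 48 h (Apob by 0.89, Fgb by 0.53 and Cps1 by 0.31), while none passed at 300 µM. Their summed signal at 24 h was 457546 to 550455 at 300 µM and 471262 to 505368 at 3000 µM, against 552516 to 723938 in vehicle wells, and at 48 h the groups overlapped. The summed stellate cell or fibroblast markers were 2841 to 3627 at 3000 µM, against 3709.8 to 4555 in vehicle wells at 24 h, and 3203 to 3647, against 3768 to 4503 at 48 h. Of these 9 markers, 5 averaged below the filter level in both groups at 24 h. At 48 h 6 did so at 3000 µM and 4 in vehicle wells. The summed cholangiocyte markers at 48 h were 10121 to 11265 at 3000 µM, against 11499 to 12445 in vehicle wells. That sum was mostly Epcam, the only 1 of 5 measured cholangiocyte markers to average above the filter level. Of 7 macrophage markers tested at 3000 µM, 1 rose and 2 fell at 24 h, and 1 rose and 1 fell at 48 h. Of the 8 measured, 4 averaged below the filter level at 3000 µM at 24 h and 5 at 48 h, against 1 and 4 in vehicle wells. Some of the 7 were thus tested only through groups where they are brighter, which favours falls against vehicle at 24 h. The part of these markers in the results was not tested.

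Most of the 9 genes were lower at the higher dose than at the lower one. At 3000 µM against 300 µM 7 fell at 24 h and 8 at 48 h, and none rose. Of all probe sets 12.2% fell and 13.9% rose at 24 h, and 16.9% fell and 17.9% rose at 48 h. At 24 h 66.6% of called probe sets were higher with medians centred, against 53.3% without it. Fgfr4 did not pass at 24 h, with a log2 change of -0.11 (adjusted p = 0.782, limma), and Cyp27a1 did not pass at either time, with log2 changes of -0.00 at 24 h (adjusted p = 0.981, limma) and 0.04 at 48 h (adjusted p = 0.736).

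**Figure D1:**
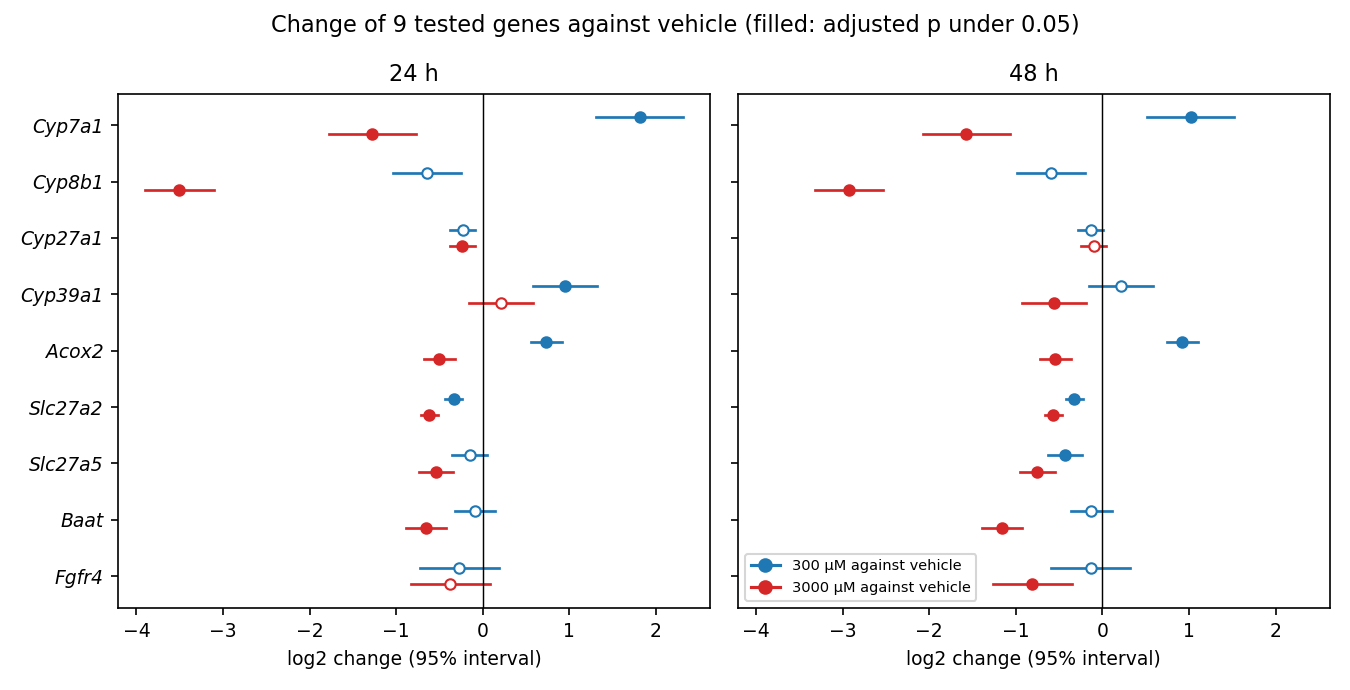
Log2 change of the 9 tested genes at 300 µM and 3000 µM phenobarbital against vehicle, at 24 h and at 48 h (n = 5 wells a group), with the 95% interval of the limma fit as bars. Filled points passed an adjusted p of 0.05; Cyp7a1 and Acox2 lie right of 0 at 300 µM and left of it at 3000 µM, and Cyp8b1 lies farthest left at 3000 µM.

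Cyp7a1, the rate-limiting hydroxylase, went opposite ways at the 2 doses. At 24 h the signals were 3071, 2939.5, 4503, 2565 and 2408 in vehicle wells, 9475, 14208, 8689, 12158 and 9452 at 300 µM, and 1745, 1277, 1039.8, 1294 and 999 at 3000 µM. The 3 groups did not overlap, with 300 µM highest and 3000 µM lowest. The log2 change against vehicle was 1.81 at 300 µM (95% interval 1.31 to 2.32, adjusted p = 2.05e-05, limma) and -1.28 at 3000 µM (-1.78 to -0.78, adjusted p = 0.000138).

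The same order held at 48 h on lower signals. Vehicle wells read 1766, 1511, 1457, 1777 and 1365, wells at 300 µM 2539.8, 3015, 2929.8, 3774 and 3858, and wells at 3000 µM 1275, 647, 401, 399 and 307. The groups again did not overlap, although array 1 at 3000 µM, at 1275, lay close to the lowest vehicle well. Cyp7a1 was 1.02 higher on the log2 scale at 300 µM (0.52 to 1.53, adjusted p = 0.024, limma) and fell by 1.57 at 3000 µM (-2.08 to -1.07, adjusted p = 5.29e-06). The call at 300 µM was lost without vehicle array 3 or 5 (adjusted p = 0.0603 and 0.0669, limma), without 300 µM array 4 or 5 (0.0735 and 0.0742) and with medians centred (0.0579), with log2 changes of 0.95 to 1.10 when 1 array was left out. At 3000 µM against 300 µM Cyp7a1 fell by 3.09 at 24 h and by 2.60 at 48 h on the log2 scale, 8.52-fold and 6.05-fold lower.

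Cyp8b1, the hydroxylase that directs intermediates to cholic acid, did not follow Cyp7a1 upward at 300 µM. At 24 h its signals were 4672, 4704, 6012, 4179.9 and 5477 in vehicle wells, 3309, 3147, 3186, 3196 and 3074 at 300 µM, and 522, 518, 366, 372 and 437 at 3000 µM. Every dosed well lay below every vehicle well, the wells at 300 µM lay close together, and 2 of 5 at 3000 µM were under the filter level of 384. At 48 h the signals were 4023, 3315, 3669, 4171 and 3441 in vehicle wells, 2584, 2312, 2743, 2368 and 2328 at 300 µM, and 819, 535, 391, 703 and 229.6 at 3000 µM. The 3 groups again did not overlap, and 1 of 5 wells at 3000 µM was under the filter level.

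On the log2 scale Cyp8b1 fell by 3.50 at 3000 µM at 24 h (-3.90 to -3.11, adjusted p = 8.22e-15, limma), an 11.3-fold lower signal. At 48 h it fell by 2.93 (-3.32 to -2.53, adjusted p = 1.82e-13), 7.60-fold lower. At 300 µM its log2 changes were -0.64 at 24 h (-1.04 to -0.25, adjusted p = 0.0675, limma) and -0.59 at 48 h (-0.99 to -0.20, adjusted p = 0.137), which did not pass. All 5 wells lay below vehicle at both times, as was so for 2.52% of all probe sets at 24 h and 2.63% at 48 h. The fit pools the spread of all 6 groups, and the log2 SD of Cyp8b1 was 0.73 at 3000 µM at 48 h, against 0.04 at 300 µM and 0.21 in vehicle at 24 h. With only the groups compared in the fit, both changes passed (adjusted p = 0.000345 at 24 h and 0.000228 at 48 h, limma). They also passed without array 5 of the 48 h group at 3000 µM (0.00402 and 0.0132, limma) and with array weights (0.019 and 0.023). At 24 h the change passed too without array 1 or array 4 of that group (0.0306 and 0.0419, limma), with the stricter filter (0.0437) and on log2(signal + 50) (0.0392). In the rest of the 40 alternatives the changes did not pass, with adjusted p up to 0.161 at 24 h and 0.272 at 48 h (limma).

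**Figure D2:**
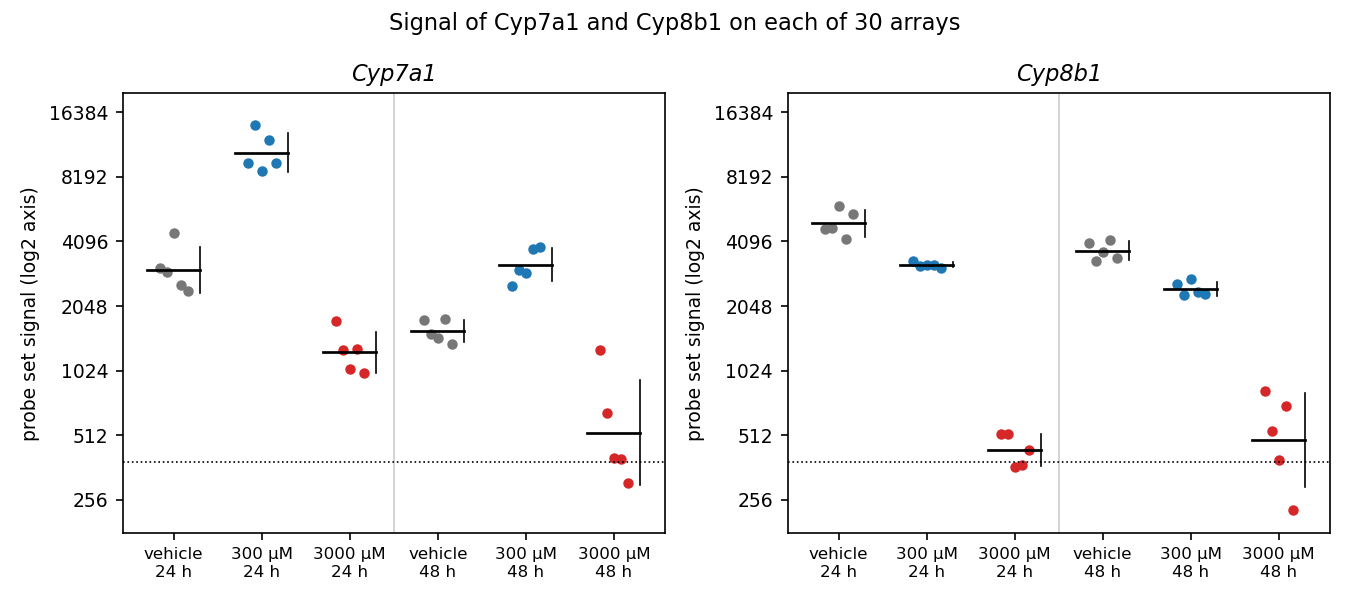
Signal of Cyp7a1 (left) and Cyp8b1 (right) on each array, on a log2 axis, in the 6 groups of 5 wells; the horizontal line is the mean of log2 signal, the vertical bar 1 SD to each side, and the dotted line the filter level of 384. Cyp7a1 is highest at 300 µM and lowest at 3000 µM at each time, whereas Cyp8b1 steps down from vehicle over both doses.

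To show what lies before the gene, the 250 bases upstream of the Cyp8b1 start are printed, from RefSeq on GRCr8, chr8:130457593-130457842, minus strand, which end at the base next to the annotated gene. Entries were present for 8 of the 10 genes. The capitals mark a match to CAAGGNCA, a core that the liver receptor LRH-1 (Nr5a2) is known to bind; its first base lies 82 bases before the start. Both strands were searched, and 5.58% of 33469 upstream sequences of the same length held a match. It is a match of letters and not a tested site.
Cyp8b1: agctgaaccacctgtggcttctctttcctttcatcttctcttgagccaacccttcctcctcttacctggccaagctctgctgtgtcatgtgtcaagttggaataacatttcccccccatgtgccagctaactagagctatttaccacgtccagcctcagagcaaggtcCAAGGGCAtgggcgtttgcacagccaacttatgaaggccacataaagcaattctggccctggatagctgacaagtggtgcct

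To compare the changes of Cyp7a1 and Cyp8b1, the difference of their log2 signals was taken on each array and compared between groups, in 6 comparisons. Relative to the vehicle mean of the same time, this difference lay at 2.17 to 2.89 on the 5 arrays at 300 µM at 24 h, against -0.47 to 0.30 on vehicle arrays. At 3000 µM at 24 h it lay at 1.91 to 2.52. At both doses Cyp7a1 stood higher than Cyp8b1, relative to vehicle, on every array. At 48 h the difference was 1.22 to 1.97 at 300 µM, against -0.09 to 0.11 in vehicle wells. The 48 h wells at 3000 µM spread widest, at 0.42 to 1.88, and still lay above all vehicle wells.

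The change of Cyp7a1 exceeded that of Cyp8b1 by 2.46 on the log2 scale at 300 µM and 24 h (95% interval 2.02 to 2.89) and by 1.61 at 48 h (1.20 to 2.03). At 3000 µM, where both genes fell, it exceeded it by 2.23 at 24 h (1.82 to 2.63) and by 1.35 at 48 h (0.66 to 2.05). Each of these 4 differences had p = 0.00794 in a 2-sided exact permutation test of 5 against 5 arrays, the smallest value such a design can give, and 0.0119 after adjustment over the 6 comparisons. They were higher in 5 of 5 dosed arrays than in any vehicle array. Between the doses no such gap was resolved. At 3000 µM against 300 µM the change of Cyp7a1 minus that of Cyp8b1 was -0.23 at 24 h (-0.65 to 0.19, exact permutation p = 0.23, adjusted 0.276) and -0.26 at 48 h (-0.97 to 0.44, exact permutation p = 0.429, adjusted 0.429). These intervals still allow a difference of either sign. Without the 2 arrays that stood apart, the 48 h value was -0.03, and the 4 differences from vehicle kept an adjusted exact p of 0.0238.

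**Figure D3:**
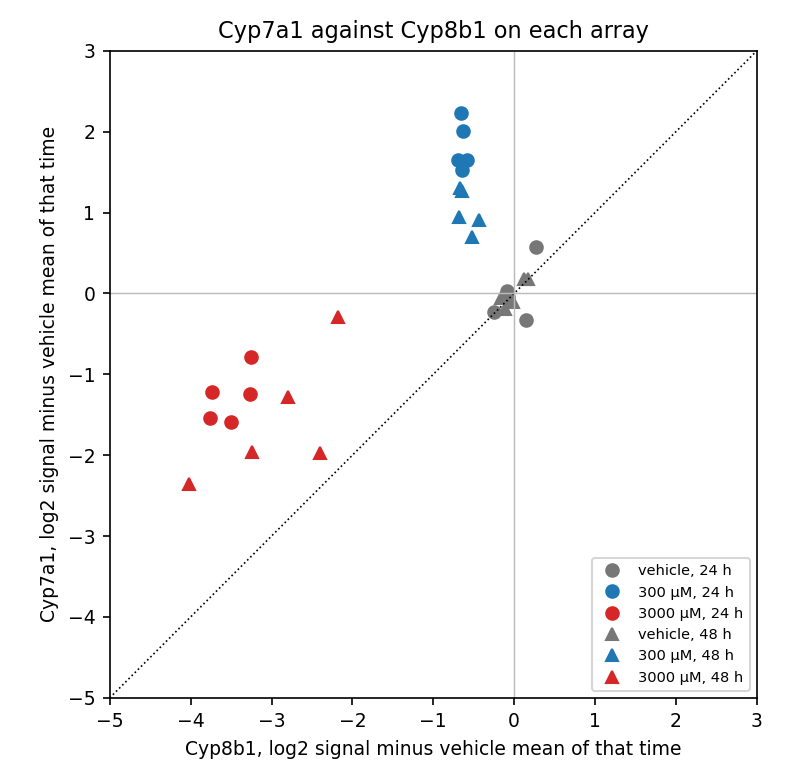
Each point is 1 array: log2 signal of Cyp8b1 (x axis) and of Cyp7a1 (y axis), each minus the mean of the vehicle wells of the same time; the dotted line marks equal change. The arrays at 300 µM lie upper left of the origin, with Cyp7a1 higher and Cyp8b1 lower, and those at 3000 µM lie lower left but above the line, since Cyp8b1 is further below vehicle than Cyp7a1 on all 10.

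The order of levels across the 6 groups differed accordingly. Cyp7a1 averaged 10796 ± 2318 at 300 µM at 24 h (SD, n = 5 for each mean here), followed by 3223 ± 571 at 300 µM at 48 h and 3097 ± 831 in vehicle at 24 h, whose arrays overlapped. Vehicle at 48 h (1575 ± 187) overlapped with 3000 µM at 24 h (1271 ± 297), which overlapped with 3000 µM at 48 h (606 ± 395). Cyp8b1 was highest in vehicle, at 5009 ± 728 at 24 h and 3724 ± 367 at 48 h. Next came 300 µM, at 3182 ± 85.6 at 24 h and 2467 ± 189 at 48 h, none of which overlapped with its neighbour. At 3000 µM Cyp8b1 was at 443 ± 75.5 at 24 h and 535 ± 236 at 48 h, and these overlapped.

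Over the 30 arrays the log2 signals of Cyp7a1 and Cyp8b1 correlated with a Pearson r of 0.69. Among 9822 genes, the 10 described here left out, the 5 whose log2 signals were most like those of Cyp7a1 were Rarres1 (r = 0.94), the retinal reductase gene Dhrs3 (0.93), the guanine deaminase gene Gda (0.93), the lipid droplet gene Fitm2 (0.92) and the ubiquitin ligase gene Rnf125 (0.92). The 5 most like Cyp8b1 were the thioredoxin-binding gene Txnip (0.98), Synrg (0.98), the peroxisomal transporter gene Abcd3 (0.97), the phosphatidate phosphatase gene Lpin1 (0.97) and the liver glycogen phosphorylase gene Pygl (0.97). Of the genes described here, Acox2 was nearest to Cyp7a1 (0.94) and Slc27a2 to Cyp8b1 (0.89), while Cyp27a1 was at -0.09 and 0.40. Txnip, for example, had log2 changes of -2.44 and -2.37 at 3000 µM and of -0.54 and -0.68 at 300 µM (24 h and 48 h), and Dhrs3 of -0.42 and -0.33 at 3000 µM and of 0.39 and 0.38 at 300 µM. Others of these genes moved less clearly against vehicle. Gda had a log2 change of 0.05 at 3000 µM at 24 h (adjusted p = 0.625, limma). Rarres1, Fitm2 and Rnf125 did not pass at 300 µM at 48 h (0.087, 0.158 and 0.348). Pygl, at -0.05 and -0.06, and Abcd3, at -0.19 and -0.10, did not pass at 300 µM at either time. These r describe the arrays, which share the 6 groups and their scaling, and carry no p.

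Cyp27a1, the mitochondrial hydroxylase that starts the alternative route and opens the side chain in the classic one, moved little, with log2 changes against vehicle between -0.24 and -0.10. At 3000 µM at 24 h its signals were 26716 to 28240.4 with a median of 27925, against 29186 to 35670.2 with a median of 33187 in vehicle wells, with no overlap. It fell by 0.24 on the log2 scale (-0.38 to -0.09, adjusted p = 0.0101, limma), a call that was lost with medians centred (0.117). At 300 µM at 24 h the log2 change was -0.23 (adjusted p = 0.0716, limma), and single wells of both groups overlapped. That change passed with a stricter filter (0.0477), with array weights (0.0275), without the 2 arrays apart (0.0478), and without vehicle array 4 (0.0409), 300 µM array 5 (0.0255) or array 4 of 3000 µM at 48 h (0.0193). It did not pass in the rest of the 40 alternatives. At 48 h the log2 changes were -0.14 at 300 µM (adjusted p = 0.47, limma) and -0.10 at 3000 µM (adjusted p = 0.287). Array 4 at 3000 µM read 35593, against 26752 to 28798 on the other 4, and without it the log2 change at 3000 µM was -0.17 and passed (adjusted p = 0.0308, limma).

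Cyp7b1, the oxysterol hydroxylase of the alternative route, read 6.43 to 146 over all 30 arrays, under the filter level of 384 everywhere. Its highest group mean was 84.9 ± 41.9 at 3000 µM at 48 h and its lowest 45.8 ± 50.9 in vehicle at 48 h (SD, n = 5 each), and all groups overlapped. No change of Cyp7b1 was detectable at such signals.

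Cyp39a1, an oxysterol hydroxylase of liver microsomes, rose at 300 µM at 24 h and did not pass at 48 h. At 24 h it read 2371, 3345, 2776, 4423 and 3749.5, against 1985, 1282, 1454, 1779.6 and 2094 in vehicle wells. All 5 dosed wells lay above all vehicle wells. It rose by 0.95 on the log2 scale (0.57 to 1.32, adjusted p = 0.00194, limma), whereas at 48 h the log2 change was 0.21 (-0.16 to 0.59, adjusted p = 0.736) with overlapping wells. The difference of the effect between the times, -0.73 (-1.26 to -0.21), did not pass (adjusted p = 0.484, limma). At 3000 µM the log2 change was 0.21 at 24 h (adjusted p = 0.43, limma) and at 48 h Cyp39a1 fell by 0.56 (adjusted p = 0.0143). That call was lost without array 2 or array 4 at 3000 µM (adjusted p = 0.0514 and 0.0587, limma), without the 2 arrays apart (0.0591) and with array weights (0.116). The 48 h wells at 3000 µM ranged between 1041 and 2262, and the highest of them, array 3, lay inside the vehicle range of 1825 to 2455.

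Acox2, the peroxisomal oxidase that begins the shortening of the bile acid side chain, had the pattern of Cyp7a1 with less spread, its log2 changes having a standard error of 0.0879, against 0.246 for Cyp7a1. At 24 h it read 3397, 3211, 3576, 3438 and 3507 in vehicle wells, 5714, 5775, 4974, 6587 and 5532 at 300 µM, and 2392, 2374, 2398, 2717 and 2219 at 3000 µM. At 48 h it read 2432, 2531, 2098, 2224 and 2386 in vehicle wells, 4566, 4110.2, 5125, 4028 and 4362 at 300 µM, and 2022, 1486, 1701, 1525 and 1342 at 3000 µM. At each time all wells at 300 µM were above, and all wells at 3000 µM below, the vehicle wells. Acox2 rose by 0.73 at 300 µM at 24 h (0.56 to 0.91, adjusted p = 1.33e-06, limma) and by 0.92 at 48 h (0.75 to 1.10, adjusted p = 9.67e-09) on the log2 scale. At 3000 µM it fell by 0.50 at 24 h (adjusted p = 2.84e-05, limma) and by 0.54 at 48 h (adjusted p = 6.35e-06).

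The upstream sequence of Acox2 is shown because it holds the same core as that of Cyp8b1. Whether this core has a part in the changes of either gene was not tested. It is 250 bases of RefSeq on GRCr8, chr15:19090705-19090954, plus strand, before a start that lies inside the annotated span of the gene. The capitals mark CAAGGNCA, with its first base 185 bases before that start. Cyp27a1 holds the core on the other strand, 236 bases before its start, where it overlaps an AGGTCA, and the remaining 5 genes with an entry hold none in this window.
Acox2: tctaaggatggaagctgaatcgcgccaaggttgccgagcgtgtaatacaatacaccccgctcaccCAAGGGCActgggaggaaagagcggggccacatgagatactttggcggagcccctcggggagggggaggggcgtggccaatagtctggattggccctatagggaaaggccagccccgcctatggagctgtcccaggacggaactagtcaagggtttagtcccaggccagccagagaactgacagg

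Slc27a2, a very long chain acyl-CoA synthetase that also activates bile acid intermediates, fell in steps. At 300 µM its signals lay at 20058 to 22136 with a median of 21477 at 24 h, against 25472 to 28635 with a median of 26322 in vehicle wells. At 3000 µM they lay at 16366 to 18583 with a median of 17069. No groups of 1 time overlapped. It fell by 0.34 at 300 µM and by 0.62 at 3000 µM at 24 h (adjusted p = 2.71e-05 and 7.9e-12, limma), and by 0.33 and 0.57 at 48 h (4.92e-05 and 2.13e-11), on the log2 scale.

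Slc27a5, the acyl-CoA synthetase that reactivates returning bile acids, and Baat, which joins them to glycine or taurine, serve conjugation. At 3000 µM at 48 h Slc27a5 read 5006, 3462, 4059, 3241 and 3784, against 7527, 6364, 6669, 6650.2 and 5445 in vehicle wells, without overlap. It fell by 0.75 (adjusted p = 1.55e-07, limma) and, at 24 h, by 0.54 (adjusted p = 4.54e-05). At 300 µM it fell by 0.43 at 48 h (-0.63 to -0.23, adjusted p = 0.0132, limma), while at 24 h the log2 change was -0.15 (adjusted p = 0.523). The 48 h call was lost without vehicle array 1 (0.0625), without 300 µM array 1 (0.0563) and with medians centred (0.0884). At 3000 µM against 300 µM Slc27a5 fell by 0.39 at 24 h and by 0.32 at 48 h, the 48 h call being lost with medians centred (0.0503) and with array weights (0.0525).

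Baat read 8467, 4914, 4899, 5437 and 5675 at 3000 µM at 48 h, against 12848, 13078, 12604, 13029 and 12821 in vehicle wells. The vehicle wells lay close together, and array 1 at 3000 µM stood above its group but below every vehicle well. Baat fell by 1.16 (-1.39 to -0.93, adjusted p = 7.86e-10, limma), and by 0.66 at 24 h (adjusted p = 2.82e-05), on the log2 scale. At 300 µM its log2 changes were -0.09 at 24 h (adjusted p = 0.794, limma) and -0.13 at 48 h (adjusted p = 0.76), with overlap. The fall at 3000 µM was larger at 48 h than at 24 h by 0.50 (-0.83 to -0.17), which did not pass (adjusted p = 0.0693, limma). It passed without array 1 at 3000 µM and 48 h (0.00287), without vehicle array 3 at 24 h (0.0452), with a stricter filter (0.0448) and with quantile normalization (0.0406).

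The 250 bases upstream of Baat are shown for the match in capitals, CAAAGTCCA, a core known to be bound by the liver receptor HNF4A. They lie at chr5:68656138-68656387 of GRCr8, minus strand, next to the annotated gene (RefSeq). The first base of the match is 90 bases before the start, 0.338% of all 33469 upstream sequences hold it on either strand, and no other of the 8 genes does. Of the other motifs searched, AGGTCA repeated after a gap of 1 base was in none of the 8 and in 0.0508% of all. AGGTCA alone, which is part of that repeat, was in Slc27a2, Cyp39a1, Cyp27a1 and Fgfr4 and in 14.1% of all.
Baat: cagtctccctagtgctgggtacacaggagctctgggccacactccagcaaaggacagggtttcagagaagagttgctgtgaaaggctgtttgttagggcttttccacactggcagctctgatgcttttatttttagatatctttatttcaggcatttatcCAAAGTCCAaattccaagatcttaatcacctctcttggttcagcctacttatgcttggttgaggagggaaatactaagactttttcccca

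Fgfr4, the receptor through which the gut hormone restrains Cyp7a1, had signals near the filter level. At 3000 µM at 48 h it read 284, 309.7, 302, 348 and 364, against 492, 559, 603, 467 and 719 in vehicle wells. All 5 dosed wells lay below all vehicle wells and below the filter level of 384. Fgfr4 fell by 0.81 (-1.27 to -0.35, adjusted p = 0.00406, limma), and against 300 µM by 0.68 (adjusted p = 0.0179), a call lost without 300 µM array 5 (0.0534). At 24 h its log2 changes were -0.27 at 300 µM (adjusted p = 0.651, limma) and -0.38 at 3000 µM (adjusted p = 0.211), and at 48 h -0.13 at 300 µM (adjusted p = 0.896). In these 3 comparisons the wells overlapped, and their intervals of -0.73 to 0.18, -0.83 to 0.08 and -0.59 to 0.32 allow changes either way.

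**Figure D4:**
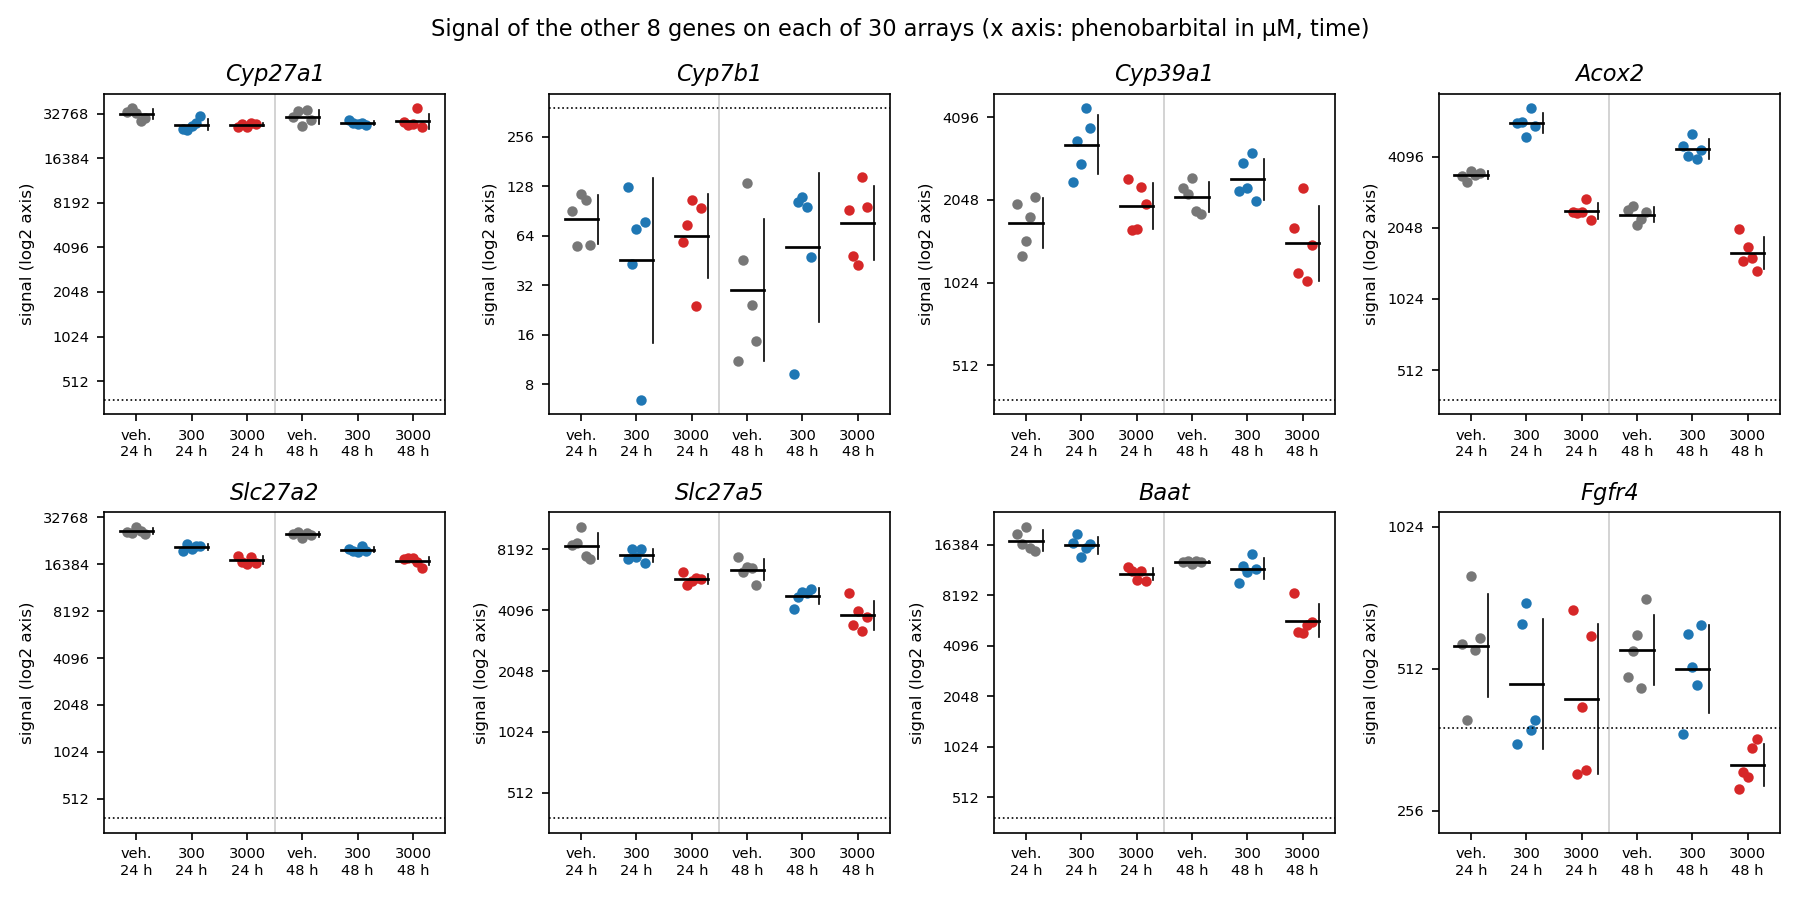
Signal of the other 8 genes on each array, on log2 axes that differ between panels, in vehicle (veh.), 300 µM and 3000 µM wells at 24 h and 48 h (5 wells each); horizontal lines are means of log2 signal, vertical bars 1 SD to each side, and the dotted line is the filter level of 384. Acox2 is highest at 300 µM and lowest at 3000 µM at each time, Slc27a2 steps down with dose, and Cyp7b1 lies under the filter level on all arrays.

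Several of these genes were lower at 48 h than at 24 h, in vehicle wells as well. In vehicle wells at 48 h against 24 h 4 of the 9 fell (Cyp7a1, Acox2, Slc27a5 and Baat), none rose and 5 did not pass, while 3.15% of all probe sets fell and 4.05% rose. The log2 changes were -0.95 for Cyp7a1 (adjusted p = 0.0152, limma), -0.56 for Acox2 (5.9e-05), -0.39 for Slc27a5 (0.0106) and -0.43 for Baat (0.0175). Without vehicle array 3 at 24 h, the highest of its group for 7 of the 9, Acox2 alone passed (adjusted p = 0.061 for Cyp7a1, 0.0546 for Slc27a5 and 0.0713 for Baat, limma). The call of Baat was also lost without vehicle array 1 at 24 h (0.0544), and that of Slc27a5 without vehicle array 5 at 48 h (0.05). Cyp8b1 had a log2 change of -0.42 (adjusted p = 0.207, limma), which passed with only the vehicle groups in the fit (0.0116). The summed cholangiocyte markers, mostly Epcam, were 11499 to 12445 in vehicle wells at 48 h, against 9016 to 10584 at 24 h, and their part was not tested. With medians centred, 36.5% of called probe sets were higher at 48 h, against 56.2% without it.

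Cyp7a1, Acox2, Slc27a5 and Baat also fell at 48 h against 24 h at each dose, 4 of the 9 each time, and none rose. At 300 µM the summed macrophage markers were 2488 to 3116 at 48 h, against 3122 to 3624 at 24 h. The summed cholangiocyte markers, mostly Epcam, were 10657 to 11541, against 8286 to 10065. The part of these markers was not tested. At 300 µM 2.33% of all probe sets fell and 2.86% rose, and Cyp7a1 had signals of 2539.8 to 3858 at 48 h, against 8689 to 14208 at 24 h. Its log2 change was -1.74 (-2.24 to -1.23, adjusted p = 1.71e-05, limma), with no overlap. At 3000 µM 7.53% of all probe sets fell and 6.42% rose, and the log2 change of Cyp7a1 was -1.24 (adjusted p = 0.000647, limma), with array 1 at 48 h inside the 24 h range. With medians centred, the share of called probe sets that were higher was 40.8% at 300 µM, against 55.1% without it, and 23.2% at 3000 µM, against 46.0%. At 300 µM the call of Baat was lost without array 1 at 48 h (adjusted p = 0.0545, limma) or array 2 at 24 h (0.0511). Cyp8b1 had log2 changes of -0.37 at 300 µM (adjusted p = 0.355, limma) and 0.16 at 3000 µM (0.668). The change at 300 µM passed with only those groups in the fit (0.00244), and that at 3000 µM was 0.43 and passed without array 5 at 48 h (0.0449), and was -0.03 without array 1.

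Whether a dose acted differently at the 2 times was tested as the difference of its effects. For 300 µM none of the 9 genes passed and 0.0% of all probe sets did (limma; 1251 of 16596 had an unadjusted p under 0.05, and other settings called 0 to 3), and Cyp7a1, 0.79 lower at 48 h than at 24 h (-1.50 to -0.08), had an adjusted p of 0.602. For 3000 µM none of the 9 passed, against 4.15% of all probe sets. There the differences were -0.30 for Cyp7a1 (adjusted p = 0.706, limma; -0.61 without array 1 at 3000 µM and 48 h and -0.10 without array 5, neither of which passed) and 0.58 for Cyp8b1 (0.247, and 0.0136 without array 5 at 3000 µM and 48 h). For Cyp39a1 it was -0.77 (adjusted p = 0.0874, limma, and 0.0231 without array 3 at 3000 µM and 48 h).

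Array 1 at 3000 µM and 48 h was the highest of its group for 5 of the 9 genes, among them Cyp7a1 and Cyp8b1. It also read 5399 on the Cyp2b1 and Cyp2b2 probe set, against 1611 as the median of its group. Array 1 at 3000 µM and 24 h was the highest of its group for 7 of the 9. The ratio of 3′ to 5′ probe sets, a measure of RNA integrity, was highest on array 4 at 3000 µM and 48 h, 1 of the 2 arrays apart, at 1.20 for GAPDH and 3.76 for beta-actin. On the other arrays it was at most 1.14 for GAPDH and 3.04 for beta-actin, and the groups overlapped.

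Other enzymes and partners of bile acid synthesis were listed too. Of 16, 10 were tested, and at 300 µM 2 rose and none fell at either time, where 1.72% of all probe sets rose and 1.27% fell at 24 h and 0.813% and 0.723% at 48 h. These were Por, the reductase that gives microsomal P450 enzymes their electrons, with log2 changes of 0.54 at 24 h and 0.46 at 48 h (adjusted p = 0.000107 and 0.00133, limma), and Fdx1, which does so for mitochondrial P450 enzymes, with 0.22 and 0.29 (0.0215 and 0.00234). Por read 13794 to 15394 at 300 µM at 24 h, against 9036 to 11003 in vehicle wells. At 3000 µM 1 rose and 4 fell at each time, where 17.3% of all probe sets rose and 14.8% fell at 24 h and 19.5% rose and 19.9% fell at 48 h: Fdx1 rose by 0.36 and 0.41, while Abcd3, which carries bile acid intermediates into peroxisomes, fell by 0.73 and 0.77. The peroxisomal bifunctional enzyme gene Hsd17b4 fell by 0.45 at 24 h and by 0.52 at 48 h, and the thiolase gene Scp2 by 0.28 at 24 h. Akr1d1, which reduces the sterol ring, fell by 0.62 at 48 h. The median log2 change of the 10 was 0.01 and -0.03 at 300 µM and -0.14 and -0.11 at 3000 µM, at 24 h and 48 h, beside medians between -0.02 and 0.01 over all probe sets.

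Of 22 listed regulators of bile acid synthesis 16 were tested, and none passed at 300 µM at either time. Of all probe sets at 300 µM, 1.72% rose and 1.27% fell at 24 h, and 0.813% rose and 0.723% fell at 48 h. Nr1h4, which encodes the bile acid receptor FXR, had a log2 change of -0.19 at 24 h (adjusted p = 0.357, limma) and -0.08 at 48 h (0.845). Nr0b2, which encodes the repressor SHP through which FXR acts on Cyp7a1, read 77.7 to 363 over all arrays and was not tested. At 3000 µM 1 rose (Ncor1) and 7 fell at 24 h, and 9 fell and none rose at 48 h, while 17.3% of all probe sets rose and 14.8% fell at 24 h, and 19.5% rose and 19.9% fell at 48 h. The receptor gene Nr1i3 (CAR) fell by 1.39 and 1.31 at 24 h and 48 h (adjusted p = 1.25e-07 and 2.04e-07, limma). It read 1013 to 1241 at 3000 µM at 24 h, against 2659.8 to 3202 in vehicle wells, without overlap. Nr1h4 fell by 0.90 at 24 h, where it read 1071 to 1415 at 3000 µM, against 2039 to 2577 in vehicle wells. Prox1, a corepressor of Cyp7a1, fell by 0.59 and 1.04, and Nr5a2 (LRH-1) by 0.53 at 24 h. At 48 h Onecut1 (HNF6) fell by 1.24. The forkhead gene Foxo1 reached the filter level in the vehicle groups alone: it read 43.3 to 246 at 3000 µM at 48 h, all under the level of 384, against 351 to 521 in vehicle wells, so Foxo1, 1 of the 9, was tested only through the groups where it is high. The median log2 change of the 16 was -0.21 and -0.25 at 3000 µM, and -0.08 and -0.06 at 300 µM.

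Of 14 listed bile acid and sterol transporters 11 were tested. Abcg5, 1 of the 11, reached the filter level in 1 of the 6 groups and was tested only through that group. At 300 µM 2 rose and 1 fell at 24 h, and 1 rose and 2 fell at 48 h, beside 1.72% of all probe sets that rose and 1.27% that fell at 24 h and 0.813% and 0.723% at 48 h. Slco1a1, an uptake carrier, fell by 0.41 and 0.64, the efflux pump genes Abcc3 and Abcb11 (the bile salt export pump) rose by 0.36 and 0.21 at 24 h, and at 48 h Abcc2 rose by 0.29 and the flippase gene Atp8b1 fell by 0.45. At 3000 µM 5 rose and 3 fell at 24 h, beside 17.3% and 14.8% of all probe sets, and 4 rose and 3 fell at 48 h, beside 19.5% and 19.9%. Slc10a1, the main sodium-dependent bile acid uptake carrier, fell by 1.41 and 1.52 (adjusted p = 5.85e-11 and 4.64e-12, limma), and Slco1b2 by 0.91 and 1.20. Abcc2 rose by 0.55 and 1.04, Slco1a4 by 0.97 at 24 h, and Slco1a1 fell by 0.85 at 48 h.

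Oxysterols and cholesterol reach Cyp7a1 through LXR and through supply, so both were listed. Of 9 listed LXR targets 6 were tested: none passed at 300 µM at 24 h, and Abca1 alone fell, by 0.28, at 48 h (adjusted p = 0.0455, limma). Abcg5, 1 of the 6 targets tested, reached the filter level in only 1 group. At 300 µM 1.72% of all probe sets rose and 1.27% fell at 24 h, and 0.813% rose and 0.723% fell at 48 h. Of all probe sets at 3000 µM 17.3% rose and 14.8% fell at 24 h and 19.5% rose and 19.9% fell at 48 h. Of the LXR targets 1 rose and 3 fell at each time at that dose, with Abca1 higher by 0.33 and 0.21 and Srebf1 lower, at -0.59 and -0.58. Abcg1 (-0.52 and -0.60) and Nr1h3 (-0.24 and -0.24), which the regulators hold too, also fell. Of 12 cholesterol supply genes 7 were tested, and at 3000 µM, beside those shares, 5 rose and 2 fell at 24 h and 3 rose and 3 fell at 48 h. Cyp51, of cholesterol synthesis, rose by 1.07 and 0.86, Fdft1 by 0.68 at 24 h and Insig1 by 0.64 and 0.45, while Lcat, which esterifies plasma cholesterol, fell by 0.84 and 1.21 and Scarb1 by 0.48 at 48 h. At 300 µM Scarb1 alone of them passed, beside the shares of that dose. It was lower by 0.43 on the log2 scale at 24 h (adjusted p = 0.0407, limma).

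Genes of the integrated stress response moved with the 3000 µM dose, beside the fall of the bile acid genes. Of 12 listed and tested, 10 rose and 1 fell at each time, where 17.3% of all probe sets rose and 14.8% fell at 24 h and 19.5% and 19.9% at 48 h. At 300 µM, where 1.72% and 0.813% of all probe sets rose, Psat1 rose by 0.30 and 0.33 and none of the other 11 passed. At 48 h against 24 h 7 of the 12 rose in vehicle wells, 9 at 300 µM and 6 at 3000 µM, and none fell, where 4.05%, 2.86% and 6.42% of all probe sets rose. At 3000 µM against vehicle Ddit3, which encodes the transcription factor CHOP, rose by 1.29 at 24 h and by 2.12 at 48 h. In the same comparisons Atf3 rose by 1.11 and 1.19, and Trib3 by 0.93 at 24 h. Sesn2 and Ppp1r15a rose by 1.23 and 1.15 at 48 h, at 3000 µM against vehicle. At 24 h and that dose Sesn2 rose by 0.79 and Fgf21 fell by 0.77. The part of this response in the changes of the bile acid genes was not tested.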

How the data were processed

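Expression was measured on 30 oligonucleotide arrays of 1 culture well each. The authors deposited 1 linear intensity per probe set, made with MAS5 per the submitters' processing notes; the target value is not given in the sources used here. The mean of each array, with 2% of values left out at each end, was 1500.6 to 1500.7, and array medians were 349 to 424.9. Probe sets were named through the platform annotation, updated by gene identifier: 20826 had 1 symbol, 436 several and 9780 none.

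Signals were put on the log2 scale. A probe set was tested if its highest group mean reached the median of all values, 8.58 on the log2 scale or a signal of 384. limma 3.58.1 in R 4.3.3 fitted 6 group means over all arrays (eBayes with trend and robust), 2-sided, with Benjamini-Hochberg adjustment over all 16596 probe sets tested, and an adjusted p under 0.05 was called. Each of the 10 genes has 1 probe set. Several genes of the other lists have more, for example 4 for Abca1. The tested probe set with the highest mean over all arrays stands for such a gene, and its others are not given here. The difference between Cyp7a1 and Cyp8b1 was tested by exact permutation (all 252 splits, scipy 1.17.1, Python 3.11.15), with Welch 95% intervals. The code was tested on simulated data.

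The genes and lists were chosen with earlier results of these data known. The text names all 10 genes, up to 4 changed members of each list per comparison by size of change, and the 5 other genes, outside the 10, most like each of Cyp7a1 and Cyp8b1. Ncor1, Nr0b2, Fgf21 and values of Nr1h4 that did not pass were added after they were seen. Titles carry running numbers, and each 6 consecutive numbers hold 1 well per group. Same-set wells deviated together with r between -0.06 and 0.09 (median 0.00), so these sets entered as a block only in an alternative. Alternatives changed the filter, scaling, log offset, fit and arrays used. Upstream sequences are RefSeq's (GRCr8).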

Additional observations from a re-analysis of the deposited data

Results flagged for a closer look

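Each of the 10 genes was examined in each of the 6 groups of 5 wells, 60 groups in all, for a highest or lowest array whose gap to its neighbour took up most of the range of its group; chance alone gives about 1 such array in 20 groups. There were 2. For Cyp27a1, array 4 of the 48 h wells at 3000 µM read 35593, against 26752 to 28798 on the other 4, a gap of 0.742 of the range on the log2 scale. This is 1 of the 2 arrays that stood apart in their hybridization controls. For Baat, array 1 of the same group read 8467, against 4899 to 5675 on the other 4, a gap of 0.731 of the range. That array was the highest of its group for 5 of the 9 tested genes.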

How the results depend on the processing

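Results were recomputed under 40 alternatives, 30 of which left out 1 array. No result changed direction while called. With medians centred, 2 genes of the 9 changed at 300 µM and 48 h, in place of 4. Leaving out 1 array in turn gave 3 to 5 changed genes there, 1 to 4 for vehicle at 48 h against 24 h (1 without vehicle array 3 at 24 h), and 0 to 1 for the difference of the 3000 µM effect between the times, which was also 1 with the stricter filter and with quantile normalization, in place of 0. The other counts stayed within 1.5 times of those reported: 4 to 6 for 300 µM at 24 h, 6 to 7 and 7 to 8 for 3000 µM at 24 h and 48 h. Choosing the dimmest probe set of each gene gave no other value, since each has 1.

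The running-number sets did not deviate together. With them as a replicate block, the differences of the Cyp7a1 and Cyp8b1 changes were 2.46, 1.61, 2.23 and 1.35 as before, each with an adjusted exact sign-flip p of 0.0938, and 5 pairs allow no smaller raw p than 0.0625. The block changed no call of the 9 genes in limma. Over all genes, comparisons and alternatives, single-gene changes gained a call 28 times and lost one 23 times. Over all probe sets, counts moved by more than 1.5 times in several settings: with medians centred 227 in place of 496 for 300 µM at 24 h, 124 in place of 255 at 48 h, 736 in place of 1195 for vehicle over time, 549 in place of 862 for 300 µM over time, and 234 in place of 688 for the difference of the 3000 µM effects. That difference gave 362 with no filter, 319 with only the compared groups and 410 to 441 without 1 of 5 single arrays, and 3000 µM over time gave 1186 in place of 2316 with only the compared groups. The count for 300 µM at 24 h was 325 or 326 without array 2 or 4 of that group. The count for 300 µM at 48 h was 168 without vehicle array 4, 458 without 3000 µM array 4, 615 with array weights, 482 with only the compared groups and 467 without the 2 arrays apart. All wells of Cyp7b1, and of Fgfr4 at 3000 µM at 48 h, lie under the filter level, as do 3 of 10 Cyp8b1 wells at 3000 µM. So does 1 of 5 Cyp7a1 wells at 3000 µM at 48 h. For Fgfr4, 2 of 5 wells do so at each dose at 24 h, and 1 of 5 at 300 µM at 48 h.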
